A study of Caenorhabditis elegans with 14 samples.

Results

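Among juvenile, reproductive, and old worms, 5 genes of Caenorhabditis elegans had an array element on which the higher strain changed with age. The genes are C34H4.1, F53C11.1, F33H2.3, B0250.5, and T28A11.19. They were chosen by the log2 ratio of CB4856 over N2, which changed sign between ages, so that this ratio is described for each array and is not tested. Of 22490 worm elements on the array, 7 carry one of these names, and 5 of the 7 changed the sign of their mean ratio. C34H4.1 and T28A11.19 have 2 elements each, of which 1 changed sign.

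N2 is the laboratory strain and CB4856 a wild strain from Hawaii, both wild type. Worms of both strains were grown at 24° on E. coli OP50, and RNA of both was hybridized to the same array with the dyes Cy3 and Cy5. The ages were 40 hr (t1, juvenile, 5 arrays), 96 hr (t2, reproductive, 4 arrays), and 214 hr (t3, old, 5 arrays). N2 was in Cy3 on replicates 1 to 3 of each age, and CB4856 was in Cy3 on replicates 4 and 5. Each sample pooled whole worms of 6 dishes. The labels give late L3 for t1, and the methods late L4. The methods also state more arrays of each age than were analyzed here. Worms for t2 and t3 had spent time on dishes with FUDR (fluorodeoxyuridine, which stops reproduction), and those for t1 had not. Age and this treatment thus cannot be told apart between t1 and t2 or between t1 and t3. CB4856 lives shorter than N2, and at one clock age the strains can thus differ in physiological age. In bulk RNA of whole worms, fewer cells of a type and less RNA per cell cannot be told apart. The 60-mer probes follow the N2 sequence, and weaker binding of CB4856 RNA, an effect the methods call low, was not told apart from lower expression. Nothing says whether arrays with exchanged dyes share RNA extracts. The p-values treat arrays as independent and may measure a spread that is partly technical.

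A gene whose 2 alleles respond differently to age shows a genotype-by-age interaction. The strongest form is a crossing, in which the genotype with more transcript at one age has less at another. Crossings can cancel in an average over ages, so that a gene of this kind can appear equal between strains when ages are pooled. Of the 5 genes, B0250.5 encodes the worm orthologue of 3-hydroxyisobutyrate dehydrogenase, a mitochondrial enzyme of valine breakdown. The other genes are protein coding by the annotation and are described by their array values alone.

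Median spot intensities of single channels were 191 to 303, over a local background of 163 to 183, and 39.3% to 63% of elements exceeded their background by 2 SD, the limit used here for "above background". Precision is limited by the number of arrays. Of the sperm marker list (26 elements), 20 fell from t1 to t2 and 16 rose from t2 to t3, where 15.3% of all elements fell and 9.42% rose. From t1 to t2, 21 of 24 oocyte elements rose, where 18.4% of all elements rose. Over the same interval 14 of 22 molting elements fell, and 7 of 11 yolk elements rose. The sperm genes gsp-3 and msp-45, the yolk gene vit-4, and the molting genes mlt-9, nas-36, nhr-23, and noah-1 had elements above background on no array at any age.

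C34H4.1 lies on chromosome IV from 1555579 to 1557560 (genome assembly WBcel235, also below). On element 3824 the log2 ratio of CB4856 over N2 at t1 was -1.66, -1.29, -1.37, -0.17, and -0.56 on replicates 1 to 5. At t2 it was 0.98, 0.15, 0.82, and 0.87 on replicates 1 to 4. All 5 juvenile arrays were thus higher in N2 and all 4 reproductive arrays higher in CB4856, with no overlap. At t3 the ratio was -1.06, -1.29, -0.11, -0.08, and 0.04, so that old worms were higher in N2 on 4 of 5 arrays. Means were -1.01 ± 0.62 (SD, n = 5) at t1, 0.71 ± 0.38 (SD, n = 4) at t2, and -0.50 ± 0.62 (SD, n = 5) at t3. N2 was 2.01-fold higher at t1, and CB4856 was 1.63-fold higher at t2. The size of the ratio went with the dye orientation. With N2 in Cy3 the mean was -1.44 in juvenile and -0.82 in old worms, and with CB4856 in Cy3 it was -0.36 and -0.02. The sign at t1 and at t2 was the same in both orientations, and the N2 excess at t3 rested on replicates 1 and 2.

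Each strain had a peak of C34H4.1 in reproductive worms, and the peak was taller in CB4856. The log2 intensity in N2 was 8.89 ± 0.53 (SD, n = 5) at t1, 11.66 ± 0.24 (SD, n = 4) at t2, and 8.05 ± 0.67 (SD, n = 5) at t3. In CB4856 it was 7.88 ± 0.38, 12.36 ± 0.22, and 7.55 ± 0.25 at the same ages. From t1 to t2 N2 thus gained 2.77 (standard error 0.27) and CB4856 4.48 (standard error 0.2) on the log2 scale. After t2 N2 dropped by 3.61 (standard error 0.32) and CB4856 dropped by 4.82 (standard error 0.16). CB4856 passed N2 by starting lower and peaking higher. The arrays of t2 did not overlap with those of t1 or t3 in either strain.

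The mean level of both strains does not enter the ratio, and its change with age was tested with limma across all 22490 elements. C34H4.1 rose 12.4-fold from t1 to t2 (log2 change 3.63, standard error 0.21, adjusted p = 4.4e-08), the 37th largest rise of all elements. To t3 it then fell 18.5-fold (log2 change -4.21, standard error 0.21, adjusted p = 2.3e-07), and no other element fell more. The change was between 3.42 and 4.09 within each of 4 scan sessions for the rise, and between -4.48 and -3.86 within each of 3 sessions for the fall. From t1 to t3 the change was -0.58 (adjusted p = 0.026). This call was lost without t1 replicate 2 (-0.46, adjusted p = 0.069), t1 replicate 3 (-0.55, adjusted p = 0.057), t3 replicate 3 (-0.44, adjusted p = 0.061), or t3 replicate 4 (-0.55, adjusted p = 0.058), and the change was 0.12 without normalization between arrays. The other element of C34H4.1, number 6257, was dim. It was above background on no array at t1 or t3, and at t2 on 4 of 4 arrays in N2 and 2 of 4 in CB4856. Its mean level rose from t1 to t2 (adjusted p = 9.9e-06) and fell from t2 to t3 (adjusted p = 6e-05), by at least 1.21-fold and 1.26-fold in N2 and at least 1.17-fold and 1.23-fold in CB4856. A ratio with both strains above background was had on replicates 2 and 3 of t2 alone, at 0.05 and 0.01. Both elements of C34H4.1 thus rose and fell again, and whether the strains cross on element 6257 could not be measured.

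**Figure D1:**
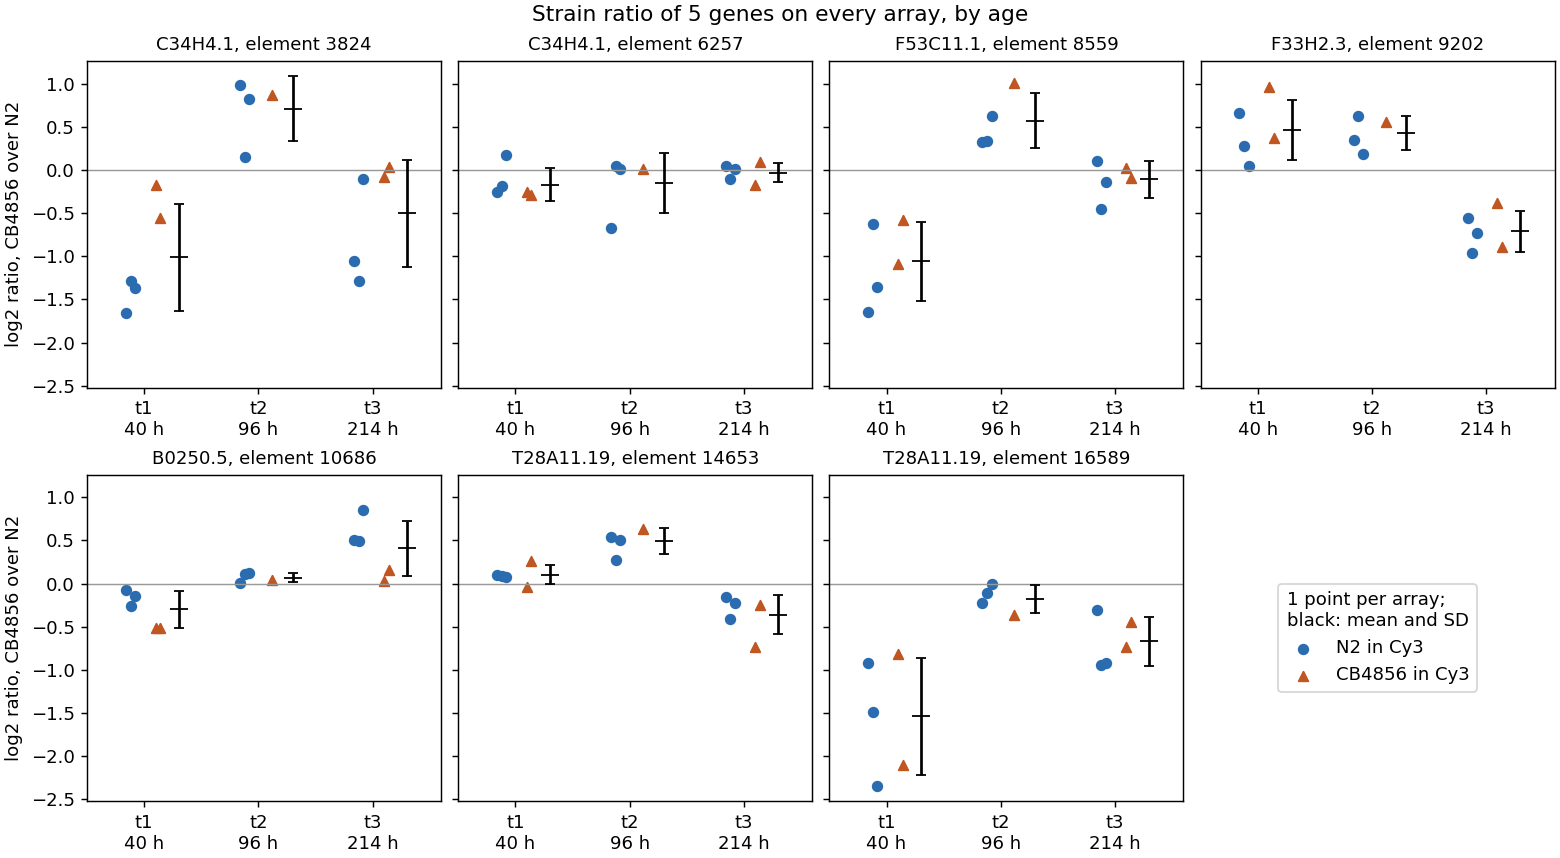
Log2 ratio of CB4856 over N2 on every array (y axis) at t1, t2, and t3 (x axis) for the 7 array elements of the 5 genes, with circles for arrays with N2 in Cy3, triangles for arrays with CB4856 in Cy3, and the mean and SD in black. Points lie wholly on opposite sides of 0 at t1 and t2 for C34H4.1 (element 3824) and F53C11.1, at t1 and t3 for B0250.5, and at t2 and t3 for F33H2.3 and T28A11.19 (element 14653).

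F53C11.1, on chromosome V from 13775796 to 13777772, crossed in the same direction as C34H4.1 between t1 and t2. Its log2 ratio at t1 was -1.65, -0.63, -1.36, -1.09, and -0.58 on replicates 1 to 5. At t2 it was 0.32, 0.33, 0.63, and 1.01 on replicates 1 to 4. Every juvenile array was higher in N2 and every reproductive array higher in CB4856, in both dye orientations. At t3 the ratio was 0.10, -0.45, -0.14, 0.02, and -0.09, with arrays on both sides of 0. The means were -1.06 ± 0.46 (SD, n = 5), 0.57 ± 0.32 (SD, n = 4), and -0.11 ± 0.21 (SD, n = 5). N2 was thus 2.09-fold higher at t1 and CB4856 1.49-fold higher at t2, and the strains differed at t3 by less than the SD between arrays.

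The rise of F53C11.1 into reproductive age was mostly that of CB4856. N2 went from 9.67 ± 0.21 (SD, n = 5) to 10.15 ± 0.34 (SD, n = 4), a gain of 0.49 (standard error 0.19) on the log2 scale. CB4856 went from 8.60 ± 0.48 (SD, n = 5) to 10.73 ± 0.49 (SD, n = 4), a gain of 2.12 (standard error 0.33). In CB4856 the highest t1 array, at 9.19, lay below the lowest t2 array, at 10.33, whereas in N2 the highest t1 array, at 9.82, lay above the lowest t2 array, at 9.75. After t2 N2 dropped by 1.55 (standard error 0.23) to 8.60 ± 0.35 (SD, n = 5), and CB4856 dropped by 2.24 (standard error 0.26) to 8.49 ± 0.15 (SD, n = 5). Over both strains, F53C11.1 rose 2.47-fold from t1 to t2 (log2 change 1.31, standard error 0.2, adjusted p = 0.00016) and fell 3.73-fold from t2 to t3 (-1.90, standard error 0.2, adjusted p = 3.2e-05). From t1 to t3 it fell by 0.59 (adjusted p = 0.018), a direction that turned without normalization between arrays (0.46) and with scale normalization (0.19). The call was also lost with arrays of one label number averaged (-0.56, adjusted p = 0.056).

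Sperm and oocyte transcripts were compared between strains at each age. The median log2 ratio of the 26 sperm elements was 0.01 at t1, 0.99 at t2, and -0.26 at t3, against 0.01, 0.02, and 0.02 over all elements, and 1 of the 26 was called at t2 (higher in CB4856), where 2.64% of all elements were called. The mean log2 level of the list at t2 ranged from 8.08 to 8.89 in N2 and from 8.68 to 10.49 in CB4856, with 6 elements (of gsp-3, msp-36, msp-45, spe-38, and spe-9) above background on no array. Its mean ratio at t2 was 1.08, 1.72, 0.63, and -0.21 on replicates 1 to 4, beside 0.98, 0.15, 0.82, and 0.87 for C34H4.1 and 0.32, 0.33, 0.63, and 1.01 for F53C11.1. At t1 the mean level of the list ranged from 10.57 to 11.83 in N2 and from 11.14 to 11.75 in CB4856, and the strains overlapped. The median ratio of the 24 oocyte elements, all above background on at least 1 array of each age, was 0.57 at t1, 0.23 at t2, and 0.12 at t3, with 0 called by limma in either direction (at an unadjusted p under 0.05, 6, 0, and 0). Its mean level at t1 ranged from 8.86 to 10.28 in N2 and from 8.88 to 11.41 in CB4856. The part of these germ line transcripts in the ratios of the 5 genes was not tested.

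F33H2.3, on chromosome I from 15034515 to 15035467, crossed later in life and in the opposite direction. Its log2 ratio was 0.66, 0.28, 0.05, 0.96, and 0.37 on replicates 1 to 5 of t1, and 0.35, 0.62, 0.18, and 0.56 on replicates 1 to 4 of t2. At t3 it was -0.56, -0.96, -0.73, -0.38, and -0.89. All 9 arrays of juvenile and reproductive worms were higher in CB4856 and all 5 arrays of old worms higher in N2. The means were 0.46 ± 0.35 (SD, n = 5), 0.43 ± 0.20 (SD, n = 4), and -0.71 ± 0.24 (SD, n = 5). CB4856 was 1.38-fold higher at t1 and 1.35-fold higher at t2, and N2 was 1.63-fold higher at t3. With N2 in Cy3 the means were 0.33, 0.39, and -0.75, and with CB4856 in Cy3 they were 0.66, 0.56, and -0.64.

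The gains to reproductive age were of like size in the strains, and after it the mean of N2 went on up while that of CB4856 did not. N2 gained 0.84 (standard error 0.24) from t1 to t2 and CB4856 0.81 (standard error 0.18) on the log2 scale. In aging worms N2 gained 0.97 (standard error 0.24) to t3, whereas the change of CB4856 was -0.16 (standard error 0.23). The log2 intensity in N2 was 10.79 ± 0.31, 11.63 ± 0.39, and 12.60 ± 0.31 at t1, t2, and t3, and in CB4856 11.25 ± 0.11, 12.06 ± 0.34, and 11.90 ± 0.34. In N2 the lowest t3 array, at 12.10, was just above the highest t2 array, at 12.07, while in CB4856 the arrays of t2 and t3 overlapped. Over both strains F33H2.3 rose 1.77-fold from t1 to t2 (log2 change 0.83, standard error 0.18, adjusted p = 0.0024) and 2.35-fold from t1 to t3 (1.23, standard error 0.17, adjusted p = 4.6e-05). The change from t2 to t3 was 0.41 (standard error 0.18, adjusted p = 0.13), and it passed the test without t3 replicate 3 (0.54, adjusted p = 0.024), without normalization between arrays (1.19, adjusted p = 0.03), and with spots of scanner flag code 3 alone (0.92, adjusted p = 0.024).

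**Figure D2:**
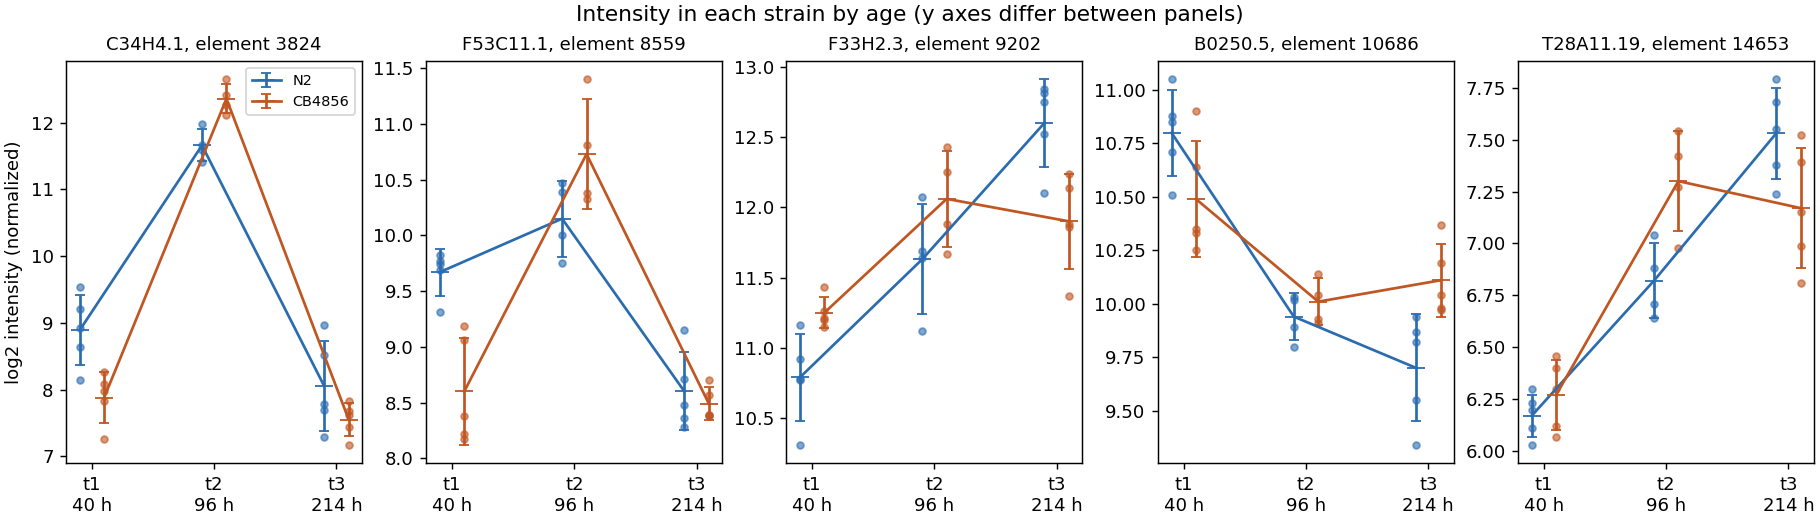
Normalized log2 intensity (y axis, different in each panel) of N2 and CB4856 at t1, t2, and t3 (x axis) for the element of each gene that changed sign, with 1 point per array and lines through the means with SD. The lines cross between t1 and t2 for C34H4.1 and F53C11.1 and between t1 and t3 for B0250.5, cross back before t3 for C34H4.1 and F53C11.1, and cross between t2 and t3 for F33H2.3 and T28A11.19, where the line of N2 goes on up.

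T28A11.19, on chromosome V from 3268688 to 3269514, had a crossing like that of F33H2.3 on one of its elements. On element 14653, neither strain was above background on any t1 array. At t2 the log2 ratio was 0.54, 0.27, 0.50, and 0.63 on replicates 1 to 4, and at t3 it was -0.16, -0.41, -0.23, -0.73, and -0.25 on replicates 1 to 5. All 4 reproductive arrays were higher in CB4856 and all 5 old arrays higher in N2. The mean went from 0.49 ± 0.15 (SD, n = 4), or 1.40-fold, to -0.36 ± 0.23 (SD, n = 5), or 1.28-fold higher in N2. The size at t2 depends on the background. Its estimate with a dye term, 0.48, was 0.26 without background subtraction and 0.83 with plain background subtraction. N2 was above background on 3 of 4 arrays and CB4856 on 4 of 4 at t2, and both were on 5 of 5 at t3. N2 gained 0.71 (standard error 0.13) to t3, whereas the change of CB4856 was -0.13 (standard error 0.18). Over both strains the element rose from t1 to t2 (adjusted p = 0.00017) and to t3 (adjusted p = 5.4e-06), by at least 1.19-fold and 1.62-fold in N2 and at least 1.32-fold and 1.25-fold in CB4856. The change from t2 to t3 was 0.29 (standard error 0.13, adjusted p = 0.13).

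Element 16589 of T28A11.19 gave another order. It was higher in N2 on all 14 arrays. Juvenile worms had log2 ratios of -0.92, -1.49, -2.35, -0.82, and -2.10 on replicates 1 to 5, whose size depends on the background. Reproductive worms had -0.22, -0.11, -0.01, and -0.37, and old worms -0.31, -0.94, -0.92, -0.73, and -0.44. In juvenile worms, 0 of 5 arrays had CB4856 above background, and N2 exceeded it at least 1.70-fold. At t2 the 2 elements thus differed, and element 14653 was higher in CB4856 on every array. For element 16589 the t2 estimate with a dye term was -0.17 (standard error 0.22), and 0.01 with a scan session block. No direction is thus given for this element at t2. Both elements were higher in N2 at t3. On element 16589, CB4856 rose from t1 by at least 1.53-fold to t2 and at least 1.35-fold to t3, and N2 was 7.97 ± 0.58, 7.79 ± 0.52, and 8.15 ± 0.24. The log2 change over both strains was 0.51 (standard error 0.2, adjusted p = 0.069) from t1 to t2, 0.11 (adjusted p = 0.75) from t2 to t3, and 0.62 (standard error 0.19, adjusted p = 0.016) from t1 to t3. The last call was lost with arrays of one label number averaged (0.55, adjusted p = 0.16) and with a scan session block (0.59, adjusted p = 0.05). Without t2 replicate 2 the change from t1 to t2 was 0.75 (adjusted p = 0.0017). On both elements the ratio was lower at t3 than at t2, with no overlap of arrays on element 14653 and an overlap on element 16589.

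B0250.5, on chromosome V from 20493924 to 20497345, moved from an N2 excess at t1 to a CB4856 excess at t3. Its log2 ratio was -0.07, -0.26, -0.15, -0.52, and -0.52 on replicates 1 to 5 of t1. At t2 it was 0.01, 0.11, 0.12, and 0.04, and at t3 it was 0.50, 0.49, 0.85, 0.03, and 0.16. All 5 juvenile arrays were higher in N2, and all 5 old arrays were higher in CB4856. The means were -0.30 ± 0.21 (SD, n = 5), 0.07 ± 0.05 (SD, n = 4), and 0.41 ± 0.32 (SD, n = 5), so that N2 was 1.23-fold higher at t1 and CB4856 1.32-fold higher at t3. At t2, with 1 array in the other dye orientation, the estimate with a dye term was -0.02 (standard error 0.09), and -0.14 without t2 replicate 4, so that no direction is given for reproductive worms. At t3 the mean was 0.61 with N2 in Cy3 and 0.10 with CB4856 in Cy3. At t1 it was -0.16 and -0.52. The size of the ratio thus went with the dye orientation at both ages, and its sign was the same in both orientations. At t2 the means were 0.08 with N2 in Cy3 and 0.04 on the array with CB4856 in Cy3. The orientations were on different arrays, and an effect of the dye was not tested.

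The level of B0250.5 was lower after the juvenile stage in both strains, and the drop was larger in N2. N2 dropped by 0.86 (standard error 0.11) from t1 to t2 and CB4856 dropped by 0.49 (standard error 0.13) on the log2 scale. In aging worms, from t2 to t3, the change was -0.23 (standard error 0.12) in N2 and 0.10 (standard error 0.09) in CB4856. The log2 intensity in N2 was 10.80 ± 0.20, 9.94 ± 0.11, and 9.70 ± 0.25 at t1, t2, and t3, and in CB4856 10.49 ± 0.27, 10.01 ± 0.11, and 10.11 ± 0.17. Over both strains B0250.5 fell 1.60-fold from t1 to t2 (log2 change -0.68, standard error 0.11, adjusted p = 0.00034), with no overlap of arrays, and 1.67-fold from t1 to t3 (-0.74, standard error 0.11, adjusted p = 7e-05). The change from t2 to t3 was -0.06 (standard error 0.11, adjusted p = 0.75). These values depend on how arrays are set against each other. The first change was -0.52 (adjusted p = 0.41) without normalization between arrays and -0.16 (adjusted p = 0.61) with scale normalization. Under these settings the change from t2 to t3 was 1.08 (adjusted p = 0.035), which passed the test, and 0.42 (adjusted p = 0.14), and from t1 to t3 the sign turned, to 0.57 and 0.26.

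**Figure D3:**
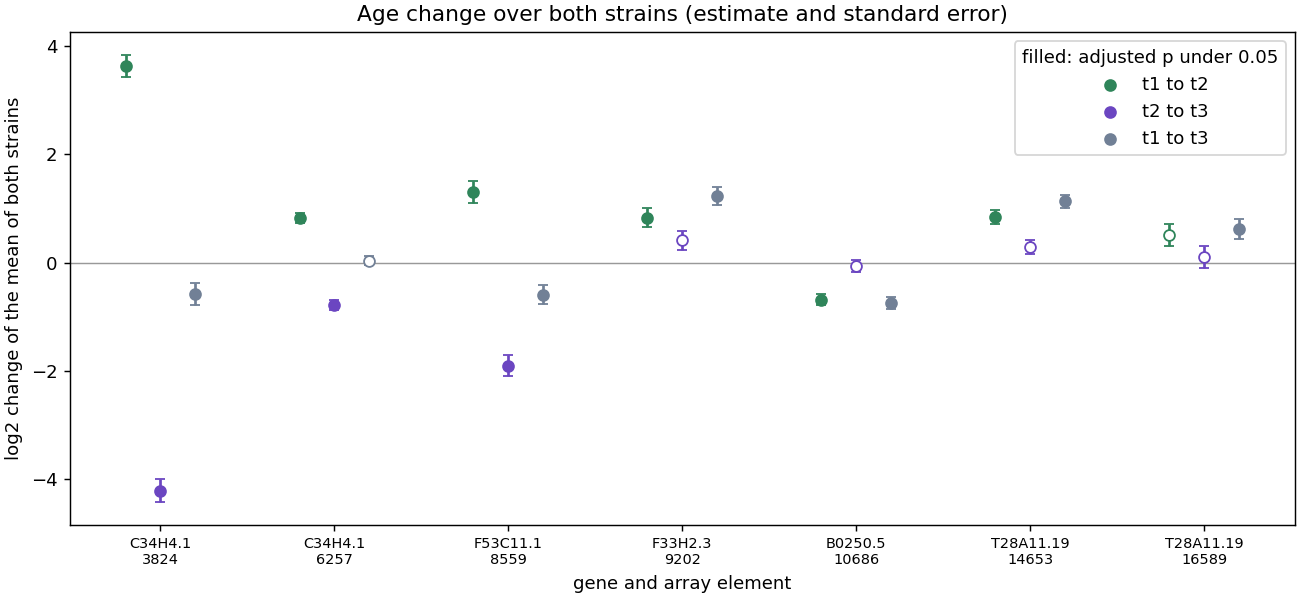
Log2 change of the mean of both strains (y axis, estimate and standard error from limma) for each gene and array element (x axis) between t1 and t2, t2 and t3, and t1 and t3, with filled points for an adjusted p under 0.05. C34H4.1 and F53C11.1 rise and fall again, F33H2.3 and T28A11.19 stay higher after t1, and B0250.5 stays lower.

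From t1 to t2, 5 of the 7 elements rose, 1 fell, and 1 did not pass the test, where 18.4% of all elements rose and 15.3% fell. In the next interval, t2 to t3, 0 rose (2 at an unadjusted p under 0.05 in limma), 3 fell, and 4 did not pass, where 9.42% of all elements rose and 10.3% fell. Without normalization between arrays the calls differed, with 3 elements rising (F33H2.3 by 1.19, B0250.5 by 1.08, and T28A11.19 on element 14653 by 0.86) and the 2 of C34H4.1 falling. Of these, B0250.5 alone had another direction than in the main fit (-0.06). F53C11.1 was then not called (-0.96, adjusted p = 0.093 by limma). From t1 to t3, 3 rose, 3 fell, and 1 did not pass, where 23.9% rose and 19.6% fell. The median change of the 7 elements was 0.83, -0.06, and 0.04, against 0.03, 0.01, and 0 over all elements. These shares of all elements move with the normalization between arrays. Among elements called from t2 to t3, 47.7% rose here, 95.5% rose without normalization between arrays, and 52.7% rose with scale normalization, and the median change of all elements was 0.01, 0.29, and -0.16. From t1 to t2 the share was 54.6%, 39%, and 69.9% (median change 0.03, -0.05, and 0.19), and from t1 to t3 it was 54.9%, 80.3%, and 66.2% (median change 0, 0.11, and -0.08). C34H4.1 had the largest fall from t2 to t3 under all 3 settings, and the 35th to 37th largest rise from t1 to t2.

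Over the array, a call of the ratio in opposite directions at 2 ages was rare. It was made for 8 elements, 0.0356% of all, and 5 of these are the elements of the 5 genes, as their choice implies. The other 3 are elements of nlp-34, a neuropeptide-like gene, ugt-64, of the glucuronosyltransferase family, and eri-7, of the RNA interference machinery, and they were looked up after the values were seen. Arrays wholly on opposite sides of 0 at 2 ages were found for 221 elements, or 0.983% of all, again including 5 of the 7.

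For each element, the other elements with the highest correlation of the ratio over the 14 arrays are named. For C34H4.1 (element 3824), the elements of lips-16, a lipase-related gene (Pearson r = 0.874), and rbm-39, an RNA-binding protein gene (r = 0.857), came first. Ratios given here for the other elements are estimates of the fit with a dye term. The ratio of lips-16 did not change sign, with estimates of 1.58, 2.85, and 1.83 at t1, t2, and t3. For F53C11.1, T19D12.4 (r = 0.923) and F53B2.8 (r = 0.914) came first, and T19D12.4 changed sign as F53C11.1 did, with estimates of -1.09, 0.71, and -0.21. For F33H2.3, C07G1.7 (r = 0.902) went from 0.03 and 0.11 to -1.28, and C39B5.10 (r = 0.894) was higher in CB4856 at each age, at 3.54, 3.58, and 1.46. For B0250.5, C52B11.5 (r = 0.905) went from -0.52 over -0.07 to 0.20, and sup-37 (r = 0.873) stayed between -0.17 and 0.06. For T28A11.19, M02A10.1 (r = 0.834) and the palmitoyl-protein thioesterase gene ppt-1 (r = 0.823) were closest to element 14653, and T20D4.11 (r = 0.901) and gtnt-17 (r = 0.868) to element 16589. For the dim element 6257 of C34H4.1, the closest were nhx-9, a sodium/proton exchanger gene (r = 0.883), and Y50D4B.4 (r = 0.879). These correlations are over arrays that share RNA, dyes, and scan sessions, and they were picked as the highest of all elements.

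The 5 protein-coding genes on each side of each of the 5 genes were compared between strains, which the choice did not use. Of these 50 genes, 45 were on the array with 57 elements. The ratio was called at 1 or more ages for 7 of the 57, or 12.3%, against 6.35% of all elements. At t1, 1 was higher in CB4856 and 4 were lower. The counts were 1 and 2 in reproductive worms and 2 and 2 in old worms, against 2.65%, 2.64%, and 3.42% of all elements called at the 3 ages. By limma, 0 of 10 neighbor elements of F33H2.3 and 0 of 10 of B0250.5 were called (1 and 2 at an unadjusted p under 0.05). A neighbor of C34H4.1, the collagen gene col-107, was higher in CB4856 at t3 (log2 ratio 1.48, standard error 0.24, adjusted p = 0.0035), and a neighbor of F53C11.1, F20G2.2, was lower at t1 (-0.85, standard error 0.13, adjusted p = 0.002).

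T28A11.19 had the other 5 called elements among the 18 of its neighbors, or 27.8%. They differed in direction from each other. fbxa-64, an F-box gene 7442 bases away, was lower in CB4856 at all 3 ages on both of its elements. On element 3038 its log2 ratio was -2.27, -2.13, and -1.28 (adjusted p = 2.1e-06, 1.8e-05, and 0.00053), with CB4856 above background on 2 of 5, 4 of 4, and 5 of 5 arrays. T28A11.4, 4536 bases away, was higher in CB4856, by at least 2.02-fold in reproductive worms (adjusted p = 0.0011) and by 1.23 on the log2 scale (standard error 0.25, adjusted p = 0.015) in old worms. In juvenile worms, 1 element of T28A11.3 was higher in CB4856, by at least 1.96-fold (adjusted p = 0.00087), and its other element was above background on 1 array in each strain. T28A11.18, 638 bases away, was higher in N2 on 1 of 3 elements in juvenile worms, by at least 1.07-fold (adjusted p = 0.02). On that element N2 was above background on 2 of 5 juvenile arrays and CB4856 on 0. Of these neighbors, none changed sign as a call, since fbxa-64, T28A11.4, T28A11.3, and T28A11.18 were each called in 1 direction. The count depended on the fit. It was 3 of 57 with scan session as a block.

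**Figure D4:**
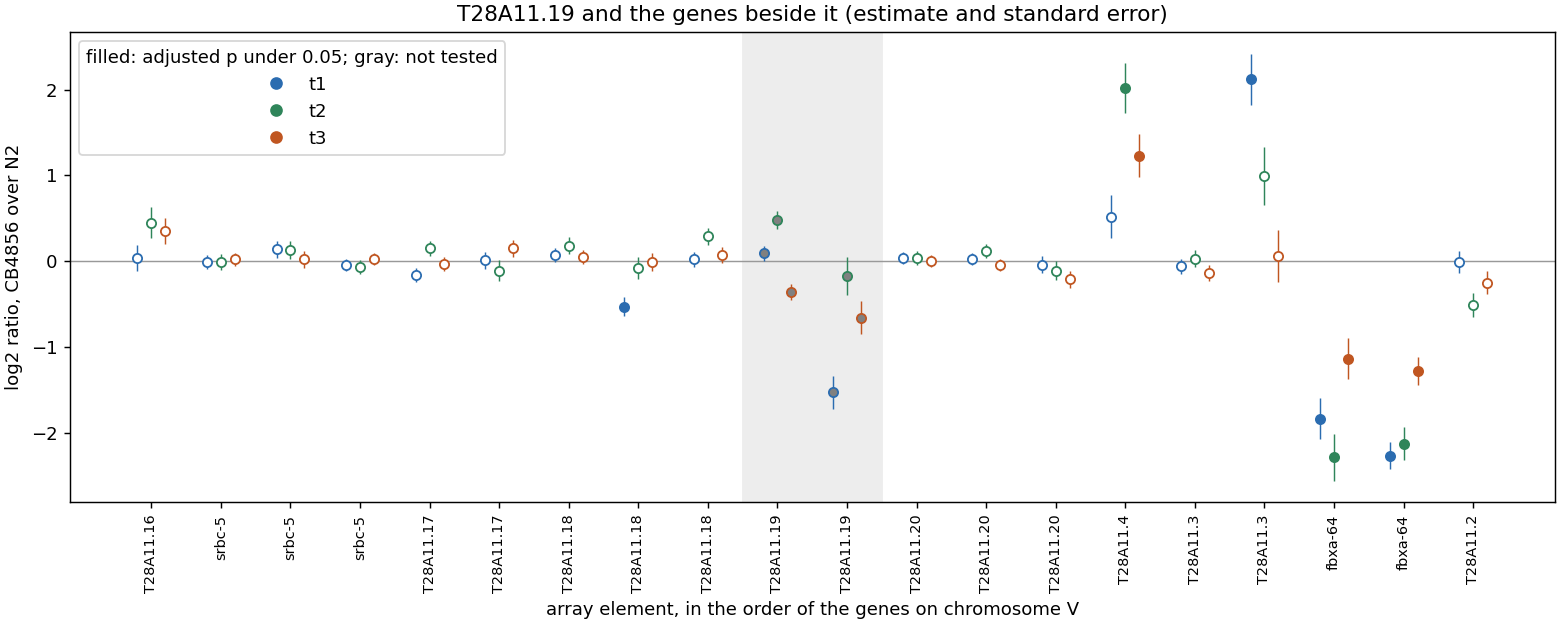
Log2 ratio of CB4856 over N2 (y axis, estimate and standard error) at t1, t2, and t3 for the elements of T28A11.19 (shaded, not tested) and of the genes beside it, in their order on chromosome V (x axis), with filled points for an adjusted p under 0.05. The elements of fbxa-64 lie below 0 at each age and that of T28A11.4 above 0, while most other elements lie near 0.

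B0250.5 works in a pathway whose other genes were also measured. Valine, leucine, and isoleucine are broken down in mitochondria through shared and branch-specific steps. The valine branch releases 3-hydroxyisobutyrate, the substrate of the enzyme that B0250.5 encodes, and ends in propionyl-CoA, which worms can also clear through a shunt that needs no vitamin B12. Of 33 elements for 24 other genes of this breakdown, 0 rose (1 at an unadjusted p under 0.05 in limma) and 19 fell from t1 to t2, where 18.4% of all elements rose and 15.3% fell, with a median log2 change of -0.64 against 0.03 over all elements. In aging worms, from t2 to t3, 2 rose and 6 fell (9.42% and 10.3% of all elements, median -0.28 against 0.01), and from t1 to t3, 1 rose and 23 fell (23.9% and 19.6% of all elements, median -1.02 against 0). The fall of B0250.5 from t1 to t2 (-0.68) was thus near the median of the list, and its later change (-0.06) was smaller. The values of the list are from the main normalization alone. They were not fitted under the other settings between arrays, on which the changes of B0250.5 depend.

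The 6 genes of the list with the largest falls from t1 to t2 included hach-1, which acts next to B0250.5, and 3 other genes of the shunt. hphd-1, a shunt dehydrogenase gene, fell by 3.05 (standard error 0.32, adjusted p = 7.9e-06) on the log2 scale. hach-1, the gene of a 3-hydroxyisobutyryl-CoA hydrolase, fell by 2.16 (adjusted p = 2.1e-06), by 1.90 (adjusted p = 0.00052), and by 1.89 (adjusted p = 4.8e-06) on 3 of its 4 elements. On the element with 1.90, CB4856 exceeded background on 2 of the 4 t2 arrays, and the remaining element of hach-1 was above background on no array. acdh-1, an acyl-CoA dehydrogenase gene of the shunt, fell by 1.77 (standard error 0.17, adjusted p = 4.2e-06) on 1 element. At t2 this element exceeded background in N2 on 2 of 4 arrays and in CB4856 on 1, so that the size depends on the background. Its other element gave -1.51 (standard error 0.72, adjusted p = 0.13). ech-6, an enoyl-CoA hydratase gene, fell by 1.45 (adjusted p = 0.00018), ivd-1, the isovaleryl-CoA dehydrogenase gene of leucine breakdown, by 1.33 (adjusted p = 0.0021), and dld-1, the dihydrolipoamide dehydrogenase gene, by 1.26 (adjusted p = 0.00012). ivd-1 rose again from t2 to t3, by 0.97 (adjusted p = 0.029).

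Between strains, the ratio was called for 1 of the 33 elements at t1 (lower in CB4856), 1 at t2 (higher), and 2 at t3 (both higher), where 2.65%, 2.64%, and 3.42% of all elements were called, with medians of 0.01, -0.03, and 0.20 against 0.01, 0.02, and 0.02 over all elements. The elements were one of acdh-2 at t1 (-1.05, adjusted p = 0.04), mmaa-1, of the handling of vitamin B12, at t2 (0.35, adjusted p = 0.039) and t3 (0.30, adjusted p = 0.037), and one of acdh-1 at t3 (1.21, adjusted p = 0.039). No element of the list was called in opposite directions at 2 ages.

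**Figure D5:**
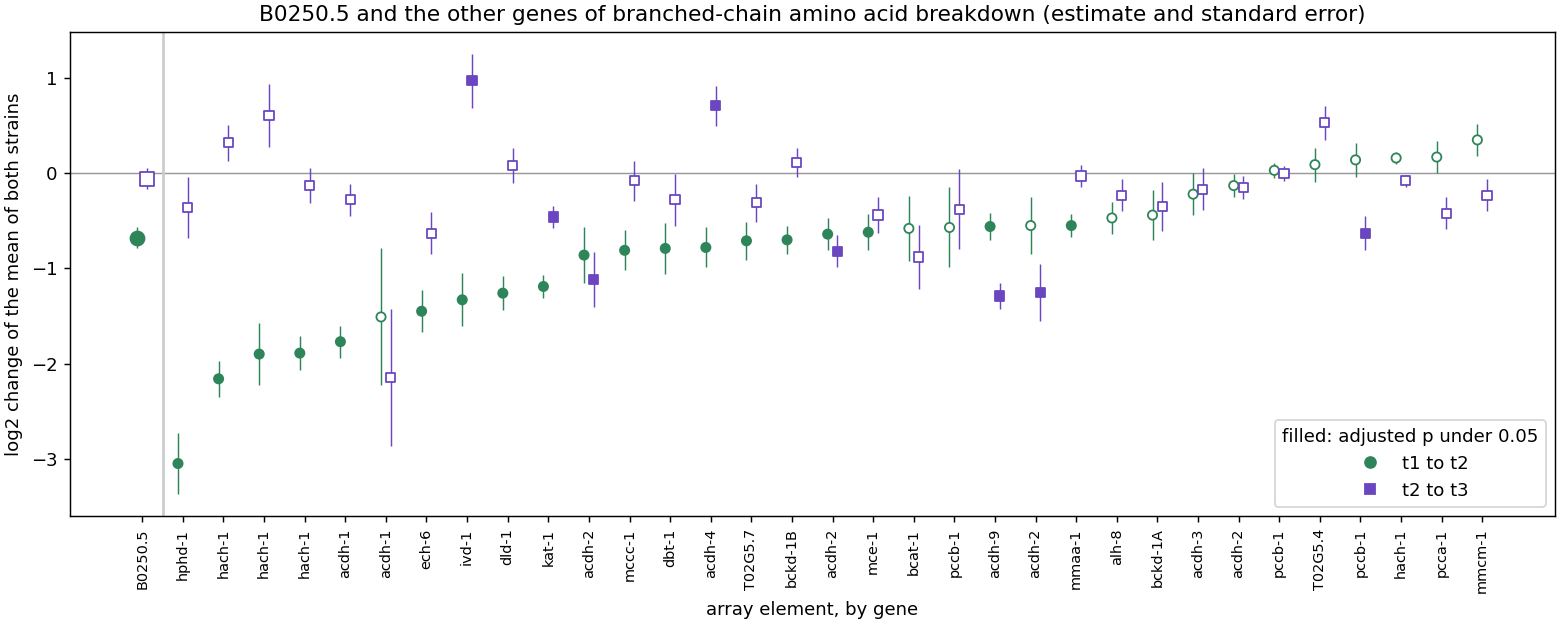
Log2 change of the mean of both strains (y axis, estimate and standard error) from t1 to t2 (circles) and from t2 to t3 (squares) for B0250.5 (left) and the 33 elements of other genes of branched-chain amino acid breakdown (x axis, ordered by the first change), with filled symbols for an adjusted p under 0.05. All 19 called changes from t1 to t2 are falls, and B0250.5 lies toward the smaller of them.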

How the data were processed

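The authors deposited, per array, scanner files with each spot's mean intensity and local background (median) in both dyes, neither corrected nor normalized, and a table of log2 ratios that the authors normalized with limma. Background was corrected by normexp (offset 50). Normalization was by loess within and by quantile between arrays, and models were fitted in R 4.3.3 with limma 3.58.1 (statmod 1.5.0). One fit of the ratio held the ages and a dye term, and another tested the mean log2 of both dyes between ages. P-values were adjusted (Benjamini-Hochberg) over 22490 elements, and calls were made under 0.05. The changes of single strains were not tested. Bounds ("at least") used uncorrected intensities after loess and quantile normalization of mean levels and are open to dye bias. The members and lists were chosen with earlier results of these data known. Named were the 5 genes, the 2 elements most correlated with each of their elements, neighbors (5 genes on each side) with a call, and up to 6 called pathway genes with the largest change. Fits were tested on simulated data. The authors' table was used for 1 alternative, as N2 over CB4856, a direction found from the correlation with the scanner ratios. No sequences were used here.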

Additional observations from a re-analysis of the deposited data

Results flagged for a closer look

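The ratio of C34H4.1 on element 3824 changed by 1.71 (log2) from t1 to t2, with every t1 array higher in N2 and every t2 array higher in CB4856, and that of F53C11.1 changed by 1.63 in the same way. For F33H2.3 the ratio changed by -1.13 from t2 to t3 and by -1.17 from t1 to t3, with every t3 array on the side of N2. The ratio of B0250.5 changed by 0.37 from t1 to t2 and by 0.71 from t1 to t3, with every t1 array on the side of N2. That of T28A11.19 on element 14653 changed by -0.84 from t2 to t3. These differences between ages were not tested, since the genes were chosen on them.

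Of 42 sets of arrays (7 elements, 3 ages, ratio and mean level), 3 had an array far from the others, where chance gives about 1 in 20. On element 6257 of C34H4.1, which was below background on all t1 arrays and dim at t2, t1 replicate 3 had a ratio of 0.17 against -0.29 to -0.19, and t2 replicate 1 a ratio of -0.67 against 0.01 to 0.05. The mean log2 level of F33H2.3 on t3 replicate 3 was 11.73, against 12.30 to 12.53 on the others.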

How the results depend on the processing

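The number of elements with a sign change of the fitted ratio was 5, between 4 and 6 under every alternative, and 5 to 6 with an array left out. It was 4 with the scanner's flag code 3 alone, where element 14653 of T28A11.19 had a ratio at t3 only. Of the 7 elements, 6 were called from t1 to t2 (6 to 7 with an array left out), 3 from t2 to t3 (3 to 4), and 6 from t1 to t3 (5 to 6). Without normalization between arrays the counts were 3, 5 (3 of them rises), and 3, with scale normalization 3 from t1 to t3, with the scanner's flag code 3 alone 3 from t1 to t2 and 1 from t1 to t3, and at an adjusted p under 0.01 3 from t1 to t3. With only arrays with N2 in Cy3, a choice made after seeing the data, 3 were called from t1 to t3, and with only those with N2 in Cy5 2, 0, and 3, where t2 had 1 array, assumed to vary like the others. Of 57 neighbor elements, 7 were called (6 to 9 with an array left out), 0 with flag code 3 alone, 4 with single-age fits, 4 with arrays of one label number averaged, 3 with a scan session block, and 4 and 1 with N2 in Cy3 or Cy5 alone. How many neighbor elements had spots left with flag code 3 alone was not counted. From t1 to t3 the change turned to 0.12 (C34H4.1), 0.46 (F53C11.1), and 0.57 (B0250.5) without normalization between arrays. With scale normalization it turned to 0.19 (F53C11.1) and 0.26 (B0250.5). With flag code 3 alone it turned to 0.42 for C34H4.1, where t3 replicate 2 was the only old array left. There the t3 ratio of T28A11.19 on element 14653 turned to 0.18, also from t3 replicate 2 alone. In the main data this ratio was -0.41 on that array. The causes were not tested. Leaving out arrays or flagged spots also leaves fewer arrays, but F33H2.3 and B0250.5 carried flag code 3 on every array. With that code alone, F33H2.3 changed by 0.92 from t2 to t3 (0.41 in the main fit). B0250.5 changed by -0.09 from t1 to t3 (-0.74 in the main fit). Spots of other codes were left out before normalization. Same-numbered arrays were not fitted as a pairing in the main models. Of 13 correlations of their deviations (-0.0479 to 0.278), 7 were over 0.1, and in 8 the same-numbered array was the closest. A weak pairing thus remains possible, and a replicate block left 6, 3, and 6 elements called. No array of 4 or 5 can lie over 2 SD from its mean, so this limit took out nothing, and the removal by regression in the methods was not run. Dim elements are known by bounds.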

Other observations

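The genes on either side of C34H4.1 had no called strain difference but shared its peak in reproductive worms. They were looked up after their values were seen. C34H4.2, which ends 12 bases from C34H4.1, rose from t1 to t2 by 0.92 (log2, adjusted p = 0.00039), and its change from t2 to t3 was -1.04 (adjusted p = 0.00047). Y41D4B.17, 2544 bases away on the other side, rose by 1.14 (adjusted p = 0.00027), and its change from t2 to t3 was -1.31 (adjusted p = 0.00029). Their ratios of CB4856 over N2 lay between -0.06 and 0.09 for C34H4.2 and between -0.25 and 0.03 for Y41D4B.17. The next genes, tag-244 and hpo-6, changed by 0.34 (adjusted p = 0.04) and 0.07 (adjusted p = 0.5) from t1 to t2. From t2 to t3 they changed by -0.77 (adjusted p = 0.00063 by limma) and -0.05 (adjusted p = 0.73). By these calls tag-244 also rose and fell again, while hpo-6 was above background on no array. tag-244 was above background on 11 arrays in N2 and 4 in CB4856. For C34H4.2 these counts were 10 and 7, and for Y41D4B.17 13 and 10. The sizes of these changes thus depend on the background, and they are given for the main normalization alone. Of all elements, 18.4% rose from t1 to t2 and 10.3% fell from t2 to t3, and the share that did both was not counted.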
